A study of Mus musculus with 32 samples.

Results

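Metallothioneins and glutathione enzymes were followed by 10 genes: Mt1, Mt2 and Mt3, the synthesis and recycling genes Gclc, Gclm and Gsr, the peroxidases Gpx1 and Gpx4, and the transferases Gsta4 and Gstm1. Members were the array probes that carry one of these symbols in the platform's probe annotation, and they numbered 11 of the 25697 probes on the array, which name 16593 genes singly. Of the 10 genes, 9 had such a probe, and Gsr had none and was not analysed here. For each of those 9 genes 1 probe was tested. The second probes of Gpx4 and Gstm1 were detected on 4 and 1 of the 32 arrays and did not pass the filter on dim probes.

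RNA came from the whole brain of 32 naïve adult male mice, 1 animal to an Illumina Mouse Ref8 v2 array. B6 (C57BL/6J, 10 mice) and D2 (DBA/2J, 6 mice) were the inbred strains. R8 (10 mice) carried 1.1 Mb of D2 chromosome 1 on a B6 background, and R2 (6 mice) carried 10.2 Mb of B6 chromosome 1 on a D2 background. Each congenic was 1 line made in the colony of the study, its mice came from full-congenic breeders, and none had received alcohol. The segments hold a locus that affects the severity of alcohol withdrawal, so R8 against B6 and R2 against D2 asked whether brain transcripts depend on its alleles. Another comparison set the mice on a D2 background (R2 and D2) against those on a B6 background (R8 and B6). The interaction asked whether the effect of the D2 allele differed between the backgrounds, although the R2 segment is longer than that of R8. No member gene lies on chromosome 1.

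Metallothioneins are small proteins rich in cysteine that bind zinc and copper. Zinc, acting through the transcription factor MTF1, glucocorticoids and oxidative stress all induce Mt1 and Mt2, which in brain are made largely by astrocytes, while Mt3 is a brain form known for its part in handling zinc. Glutathione is the main small thiol of the cell. Glutamate-cysteine ligase, with its catalytic subunit Gclc and its modifier subunit Gclm, makes the precursor, peroxidases use glutathione to reduce peroxides, transferases attach it to reactive compounds, and Gsr returns the oxidized form to the reduced one.

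The metallothionein genes lie side by side on chromosome 8 (build GRCm38.p6, plus strand), with Mt3 at chr8:94152607-94154148, Mt2 at chr8:94172618-94173567 and Mt1 at chr8:94178883-94180327. The bases before the annotated starts of Mt2 and Mt3 are shown because Mt2 was called between the backgrounds and its neighbour Mt3 was not. Mt1, the other neighbour of Mt2, was not called either. Its bases are not shown, but its window is counted below. The bases before the annotated start of Gclm are shown because its probe gave the smallest p of the members. Sequences are from RefSeq and belong to the C57BL/6J reference, so they say nothing of the D2 alleles. Capitals mark matches on either strand to the metal response element (TGCACNC or TGCGCNC) and to the core of the antioxidant response element (TGACNNNGC). The first 4 letters of the antioxidant core are shared with AP-1 sites.
Mt2, chr8:94172368-94172617: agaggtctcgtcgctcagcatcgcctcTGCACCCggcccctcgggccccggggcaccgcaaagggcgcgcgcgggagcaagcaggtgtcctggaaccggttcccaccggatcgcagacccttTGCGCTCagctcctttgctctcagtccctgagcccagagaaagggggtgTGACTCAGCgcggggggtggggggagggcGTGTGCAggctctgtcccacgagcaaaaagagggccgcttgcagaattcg
Mt3, chr8:94152357-94152606: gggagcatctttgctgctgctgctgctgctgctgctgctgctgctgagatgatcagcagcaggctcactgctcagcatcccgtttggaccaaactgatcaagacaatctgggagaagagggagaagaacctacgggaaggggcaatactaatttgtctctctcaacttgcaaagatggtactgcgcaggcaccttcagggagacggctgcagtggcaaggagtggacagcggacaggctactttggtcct
Gclm, chr3:122245307-122245486: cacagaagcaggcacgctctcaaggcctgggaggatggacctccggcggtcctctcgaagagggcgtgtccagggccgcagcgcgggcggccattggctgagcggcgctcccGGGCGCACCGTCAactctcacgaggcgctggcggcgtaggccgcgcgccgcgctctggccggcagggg

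In the 250 bases before its start Mt2 held 3 metal response element matches and 1 antioxidant core, at 79 bases before the start. The Mt3 stretch held neither, but a metal response element match began at base 28 after its start, inside the windows counted below. In Gclm a metal response element match and an antioxidant core overlapped, both on the strand opposite to the gene. The Gclm window counted below is set on a start site at base 122245557, downstream of the annotated start. Its other metal response element matches are therefore not wholly inside the stretch shown. Counted over windows of 250 bases before to 50 after a start site, 25.9% of 32544 distinct windows held a metal response element match in either form and 12.4% held an antioxidant core. At least 3 metal response element matches were found in 1.99% of the windows, those of Mt1, Mt2 and Gclm among them, and at least 4 in 0.522%, that of Mt2 among them. Such matches describe letters and are not shown to be sites in use.

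The Mt1 probe was among the brightest on every array, with raw signals from 56001.9 to 71955.6 and a rank between 2 and 36 of 25697. Quantile normalization fixes the values at such ranks, which limits how far this probe can vary. On the log2 scale of normalized signal, the lowest, median and highest Mt1 values were 15.96, 16.02 and 16.11 in B6 and 15.94, 16.04 and 16.11 in R8. In R2 they were 16.03, 16.07 and 16.12, and in D2 15.98, 16.03 and 16.10. The strains overlapped throughout, and the order of the means (B6, R8, D2, R2) had no neighbours that differed beyond their spread.

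The Mt2 probe spanned 9.07 to 10.12 over all mice. In B6 the lowest, median and highest log2 signals were 9.07, 9.38 and 9.77, and in R8 they were 9.07, 9.72 and 9.89. In R2 they were 9.51, 9.98 and 10.12, and in D2 9.59, 9.82 and 9.93. All 12 mice on the D2 background lay above the median of the 20 on the B6 background, and 6 of them above the highest of those. The order of the means was B6 (9.39 ± 0.25, SD, n = 10), R8 (9.63 ± 0.26, SD, n = 10), D2 (9.78 ± 0.15, SD, n = 6) and R2 (9.91 ± 0.23, SD, n = 6), and no step between neighbours in this order passed the adjusted threshold.

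Mt3 overlapped between all strains. Its lowest, median and highest log2 signals were 13.42, 13.70 and 14.18 in B6 and 13.60, 13.79 and 13.92 in R8. In R2 they were 13.39, 13.65 and 13.92, and in D2 13.68, 13.95 and 14.10. Of the 6 R2 mice 3 lay below every D2 mouse and none above the D2 median.

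**Figure D1:**
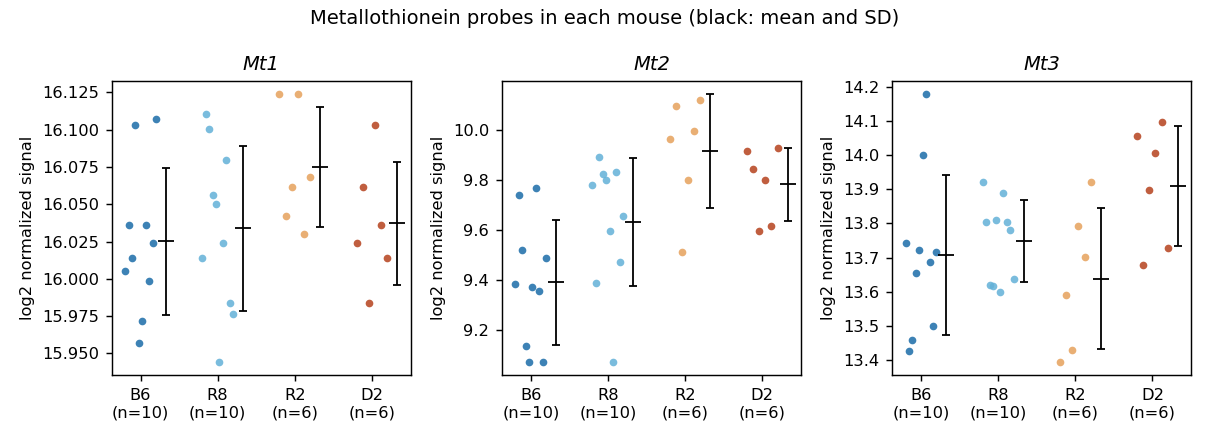
Log2 normalized signal of the Mt1, Mt2 and Mt3 probes (vertical axes, each with its own scale) in every mouse of the 4 strains, with black bars for the mean and SD. Mt2 lies higher in R2 and D2 than in B6, while Mt1 spans only 15.94 to 16.12 over all mice.

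Among the glutathione synthesis genes, Gclc (chr9:77754535-77794489) and Gclm (chr3:122245487-122267215) encode the subunits of one enzyme. Gclm log2 signals ran from 10.91 over a median of 11.07 to 11.48 in B6 and from 10.99 over 11.24 to 11.44 in R8. They ran from 10.59 over 10.66 to 10.80 in R2 and from 10.47 over 10.83 to 11.09 in D2. All 6 R2 mice lay below every B6 and every R8 mouse, and 4 of the 6 D2 mice lay below every B6 mouse. How many of all tested probes set R2 apart in this way was not counted, so the separation is not read as particular to Gclm. Of all tested probes, 19.7% were called between R2 and B6 at an adjusted p under 0.05. The catalytic subunit Gclc showed no such separation, with medians of 9.25 in B6, 9.17 in R8, 9.05 in R2 and 9.17 in D2 and values between 8.75 and 9.64 over all mice.

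The peroxidases were bright and close together. Gpx1 (chr9:108339080-108340342), which reduces hydrogen peroxide, had medians of 13.65 in B6, 13.73 in R8, 13.63 in R2 and 13.58 in D2. Gpx4 (chr10:80047166-80056439), which reduces lipid hydroperoxides, had medians of 12.81 in B6 and in R8, 12.79 in R2 and 12.80 in D2. Both overlapped in every pair of strains.

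Gsta4 (chr9:78191966-78209349) encodes a transferase known for clearing 4-hydroxynonenal, a product of lipid peroxidation. Its probe, shown because the Gsta4 difference between the backgrounds rests on this single probe, lies on the plus strand of chromosome 9 at bases 77994779 to 77994828 of build NCBIM37, and no capitals are marked.
Gsta4 probe: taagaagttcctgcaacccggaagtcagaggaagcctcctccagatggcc
Gsta4 log2 signals ran from 10.26 over a median of 10.40 to 10.59 in B6 and from 10.40 over 10.50 to 10.66 in R8. They ran from 10.35 over 10.60 to 10.74 in R2 and from 10.57 over 10.59 to 11.11 in D2. The D2 value of 11.11 stood apart, with the next D2 mouse at 10.68. Of the 12 mice on the D2 background 11 lay above the median of those on the B6 background, and 3 above the highest. Gstm1 (chr3:108012250-108017973), a transferase of the mu class, had medians of 13.02 in B6, 12.90 in R8, 12.97 in R2 and 12.92 in D2, and its strains overlapped. Whether D2 carries variants under any of these probes was not tested.

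**Figure D2:**
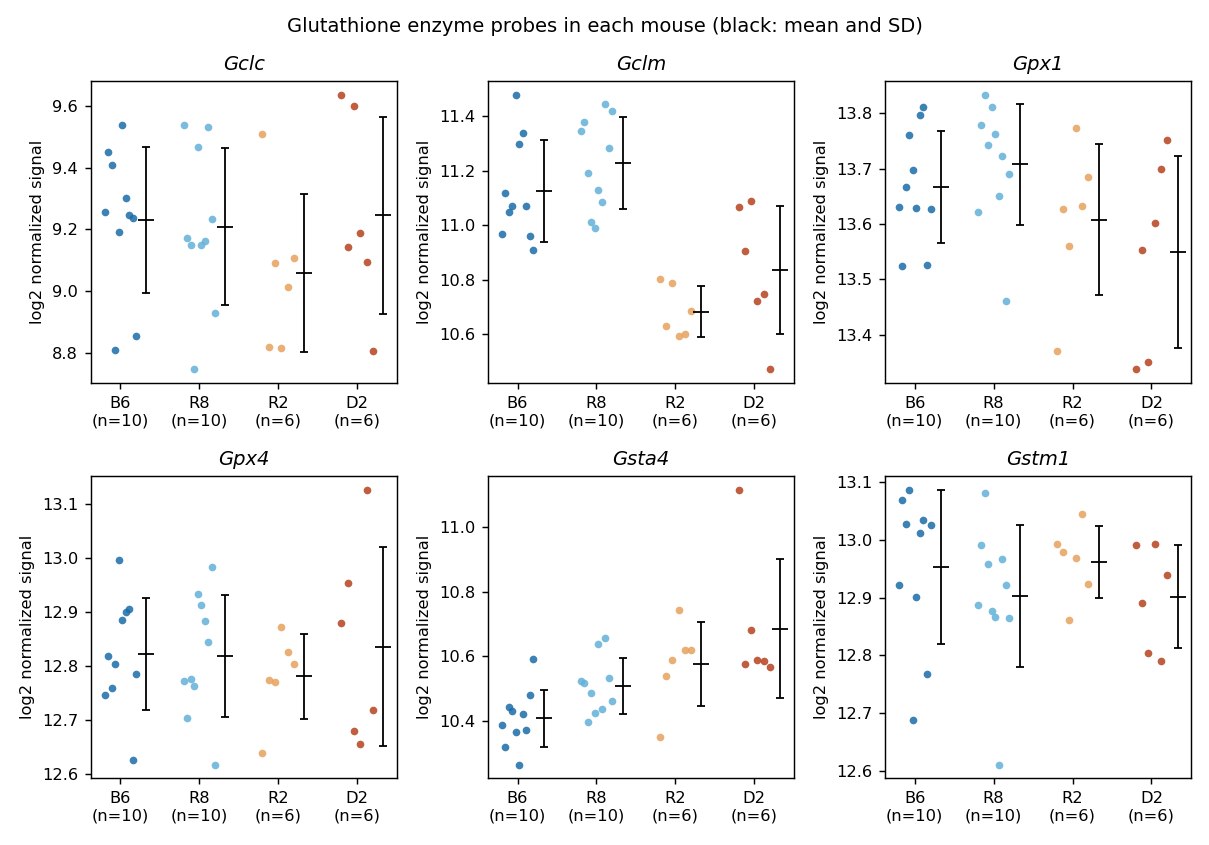
Log2 normalized signal of the 6 tested glutathione enzyme probes (vertical axes, each with its own scale) in every mouse, with black bars for the mean and SD. Gclm is lower in R2 and D2, and 1 D2 mouse stands at 11.11 for Gsta4.

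On the B6 background no member was called between R8 and B6 by limma, with p-values of the 12351 tested probes adjusted by Benjamini-Hochberg. The count was 0 of 9 at an adjusted p under 0.05, where 0.081% of all tested probes were called, 10 in number. At an unadjusted p under 0.05 the only member was Mt2, higher in R8 by 0.24 (SE 0.0995, p = 0.022, limma adjusted p = 1.00), where 4.13% of all probes lay under that limit. Its 95% interval, 0.037 to 0.442, allows a rise of up to that size. The other differences lay between -0.05 for Gstm1 and 0.10 for Gclm. The widest of their intervals was that of Gclc, from -0.248 to 0.206. In a separate group of mice, the paper reports QPCR differences between R8 and B6 for Mt2, Mt1 and Gclc. The paper also counts Mt2 among the genes that its own array comparison implicated, for which it set an unadjusted threshold of 0.01. The QPCR difference of Mt2 had the direction of that array result. The QPCR values were not analysed here.

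On the D2 background the count was again 0 of 9, where 0.494% of all probes were called. Mt3 was the only member at an unadjusted p under 0.05, lower in R2 than in D2 by a log2 difference of -0.27 (SE 0.106, p = 0.015, limma adjusted p = 0.225), and 15.3% of all probes lay under that limit. Its interval ran from -0.488 to -0.057. The remaining members lay between -0.19 for Gclc and 0.13 for Mt2, with intervals that included 0. The self-test of this comparison on simulated arrays recovered 44 of 100 probes changed by 0.3 on the log2 scale and 92 of 100 changed by 0.6, so a difference of the size seen for Mt3 could be missed.

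Between the backgrounds 3 of 9 members were called, 2 higher and 1 lower on the D2 background, where 28% of all tested probes were called (15.1% higher and 12.9% lower). The share among the members is near that of the whole array. Mt2 was higher on the D2 background by 0.34 on the log2 scale, or 1.26-fold (SE 0.0812, limma adjusted p = 0.00146). Gsta4 was higher by 0.17, or 1.13-fold (SE 0.0475, limma adjusted p = 0.00498), and Gclm fell by 0.42, or 1.34-fold lower (SE 0.0636, limma adjusted p = 2.24e-06). The members' median difference was 0.004, and that of all tested probes 0.023.

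Within each group that held a called member, 1 was called and the others were not. Mt2 was called while Mt1 and Mt3 had differences of 0.03 (interval -0.026 to 0.079) and 0.05 (-0.090 to 0.183). The Mt1 value and interval are limited by quantile normalization at its rank, and median scaling gave 0.09, outside that interval. Gclm was called while Gclc, the partner subunit, had -0.07 (-0.252 to 0.119), and Gsta4 was called while Gstm1 had 0.00 (-0.084 to 0.091). The differences between these members were not tested. Gpx1 was lower by a log2 difference of -0.11 (limma adjusted p = 0.0844), and Gpx4 had -0.01.

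Neighbouring columns of the deposited table were grouped by 8, as a stand-in for a slide that the labels do not give, and each of the 4 groups held mice of all strains. Mt2 was higher on the D2 background within all 4 (0.21 to 0.42), as was Gsta4 (0.06 to 0.32). Gclm was lower within all 4, by log2 differences from -0.48 to -0.37, and Gpx1, not called, had -0.13 to -0.08. Without the D2 mouse at 11.11, Gsta4 was higher by 0.13 (limma adjusted p = 0.00773).

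The allele by background interaction called 0 of 9 members, where 0.113% of all probes were called. The largest was Mt2, at 0.37 (interval 0.039 to 0.701, p = 0.0295, limma adjusted p = 0.568). The self-test recovered 24 of 100 probes with an interaction of 0.3 and 79 of 100 with one of 0.6.

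Pairs of strains, which share arrays with the comparisons above and with each other, give the same members side by side. In D2 against B6, Mt2 (0.39), Gclm (-0.29) and Gsta4 (0.28) were called, where 20.4% of all probes were. In R2 against B6, which share the B6 segment, Mt2 (0.52) and Gclm (-0.44) were called and Gsta4 (0.17) had a limma adjusted p of 0.0774, where 19.7% of all probes were called. In D2 against R8, which share D2 alleles in the R8 segment, Gclm (-0.39) was called, while Mt2 had 0.15 and Gsta4 0.18, where 19.6% of all probes were called.

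**Figure D3:**
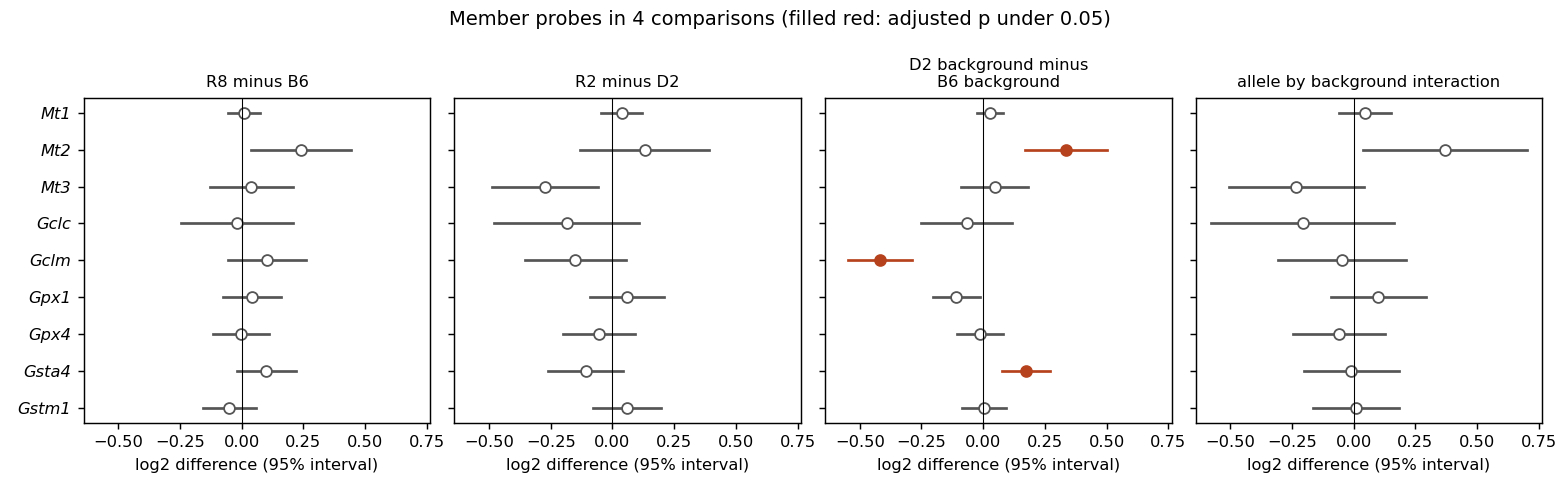
Log2 difference of each tested member probe with its 95% interval (horizontal axis) in 4 comparisons, with members at an adjusted p under 0.05 filled in red. Mt2, Gclm and Gsta4 are called in the background comparison, and none in the others.

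Mice of 1 strain are genetically alike, so the deviations of the 32 mice from their strain means show how members varied without strain. Of 36 pairs of members, 1 passed a permutation test within strains (100000 resamples, two-sided, adjusted over the 36). It was Mt2 with Gstm1, at r = 0.66 (p = 0.00015, adjusted p = 0.0054) and rho = 0.47 (p = 0.00863, adjusted p = 0.0777). The r within the strains was 0.62 in B6, 0.71 in R8, 0.60 in R2 and 0.85 in D2. Without the 2 mice farthest from the median of Mt2 it was 0.54 and no longer passed (adjusted p = 0.162), so the call rests on those mice, which had the lowest Mt2 signals of R8 and of R2.

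Mt1 and Mt2 had r = 0.14 (permutation p = 0.479) and rho = 0.20, with the Mt1 values held in a narrow range as described above. Mt3 had r = -0.03 with Mt1 and 0.06 with Mt2. Gclc and Gclm had r = 0.53 and rho = 0.52 (permutation adjusted p = 0.0522 and 0.0777), and Gclc and Gpx1 had r = -0.55 and rho = -0.51 (permutation adjusted p = 0.0522 and 0.0777).

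**Figure D4:**
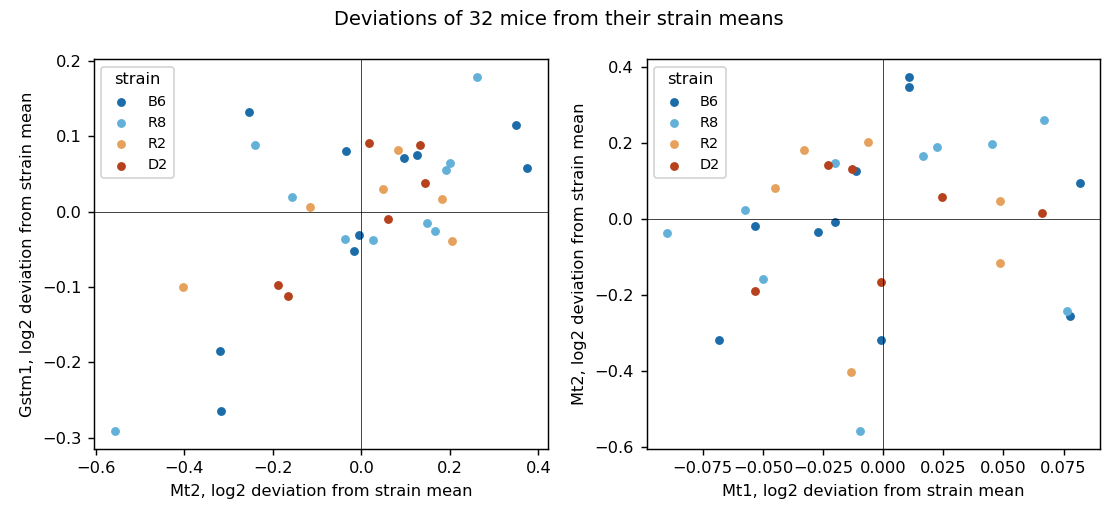
Deviation of each of the 32 mice from its strain mean on the log2 scale, for Mt2 (horizontal) and Gstm1 (vertical) at left and for Mt1 and Mt2 at right, coloured by strain. The left panel has r = 0.66 and the right panel r = 0.14.

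The probes of other genes that followed each member most closely over the 32 mice, by r of the same deviations, are given as a description. For Mt1 they were Rassf4, Abhd4 and Slc38a9 (all 0.62), and for Mt2 Gstm1 (0.66), Myo7a (0.63) and Cilk1 (0.61). For Mt3 they were Carmil3 (0.71), Rpl27a (0.70) and Cdk16 (0.68). The synthesis genes had closer neighbours, Gng5 (0.86), Phyhipl (0.85) and Glrb (0.85) for Gclc, and Slc6a11 (0.83), Lbh (0.83) and Rad17 (0.82) for Gclm. For Gpx1 they were Ap2s1 (0.74), Arl2 (0.73) and Dgcr6 (0.72), and for Gpx4 Srrm2 (0.65), S100b (0.64) and Bola2 (0.64). For Gsta4 they were Ccdc47 (0.78), Tceal1 (0.78) and Tipin (0.77), and for Gstm1 Leng9 (0.68), Tlcd1 (0.68) and Ccdc174 (0.67). The share of the other tested probes with r over 0.5 was 6.78% for Gclm and 6.69% for Gclc, against 0.28% for Mt1 and 0.32% for Mt2.

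Genes around the members came from lists of related function, with 1 probe a gene, and their counts stand beside the 28% of all tested probes called between the backgrounds. Of 22 tested genes of metal handling, 5 rose and 1 fell on the D2 background, with a list median of 0.09. Slc30a1, the zinc exporter of the cell surface and a known MTF1 target, was higher by 0.53 (limma adjusted p = 8.85e-06), with B6 mice between 8.50 and 9.16, R8 mice between 8.47 and 9.12, R2 mice between 9.13 and 9.85 and D2 mice between 8.88 and 9.82, so the backgrounds overlapped. Slc39a6 and Slc30a9, both zinc transporters, were higher by 0.18 and 0.17. Slc30a7, which carries zinc into the Golgi, fell by 0.44. Without background correction the differences were smaller, 0.34 for Slc30a1 and -0.22 for Slc30a7, and both were still called.

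Of 11 genes of glutathione synthesis, supply and turnover, 1 rose and 1 fell, with a list median of 0.03. Slc7a11, the cystine importer that feeds glutathione synthesis, fell by 0.75 (limma adjusted p = 2.01e-14). Its groups were apart, 9.80 to 10.31 on the D2 background and 10.67 to 11.15 on the B6 background. The share of all tested probes whose backgrounds are apart was not counted. Chac1, which degrades glutathione, was higher by 0.33. Ggct, which acts after Chac1, gave values by probe of -0.96, -0.76, -0.08 and 0.20, so no direction is stated for it. A dimmer probe of Nit1, also of this list, was called higher (0.22, limma adjusted p = 0.0349). That call was lost in 12 of 41 alternatives.

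Of 16 other transferases 3 fell and none rose, with a list median of -0.04. These were Gstt3 (-0.34), Gsto1 (-0.29) and Gstm5 (-0.13), the last with a limma adjusted p of 0.147 after median scaling. The count depends on the probe that stands for a gene. A dimmer probe of Mgst3 was called higher (0.22, limma adjusted p = 0.00449) and one of Gstp1 lower (-0.18, limma adjusted p = 0.0175). Of 4 other peroxidases only Gpx2 was called. It was detected on 10 of 10 B6 and 9 of 10 R8 arrays and on 0 of 12 arrays of the D2 background, where it was at least 1.27-fold lower. It passed the filter on dim probes through the B6 background alone and could be called only as lower, so nothing is read from that count. Of 10 genes of glutaredoxins, thiol hydrolysis and NADPH supply, 3 rose and 1 fell. Glo1, the glyoxalase that uses glutathione to clear methylglyoxal, was higher by 0.97 (limma adjusted p = 3.63e-22). Its signals ran from 13.10 to 13.43 on the B6 background and from 14.10 to 14.37 on the D2 background. As for Slc7a11, the share of all tested probes whose backgrounds are apart was not counted. Glrx, a glutaredoxin, was higher by 0.48 and Idh1, a source of NADPH, by 0.31. Esd, which hydrolyses the glutathione adduct of formaldehyde, fell by 0.96 on its brightest probe, while its other probes gave -0.06 and 0.12. Me1, another source of NADPH, gave -0.10 on one probe, while the other was detected on every array of the B6 background and on 0 of 12 of the D2 background. No direction is stated for Me1.

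Of 7 tested genes among NRF2 and its other targets, 1 rose, the thioredoxin reductase Txnrd1 (0.23), with a list median of 0.04. Without R2 replicate 1 or R2 replicate 5 the Txnrd1 call was lost (limma adjusted p = 0.0573 and 0.0580). A dimmer probe of Srxn1, another gene of this list, was called higher (0.16, limma adjusted p = 0.0316). That call was lost in 6 of 41 alternatives. Glucocorticoids also induce metallothioneins, and of 11 glucocorticoid-induced genes 7 fell and 2 rose, with a median of -0.21 against 0.02 for all probes. Tsc22d3 fell by 0.32, Per1 by 0.25 and Klf9 by 0.21, and Pdk4 was higher by 0.45. The summed signal of this list ran from 65752 to 77250 on the B6 background and from 56414 to 68004 on the D2 background. Its part in the differences of Mt2 and the other members was not tested.

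**Figure D5:**
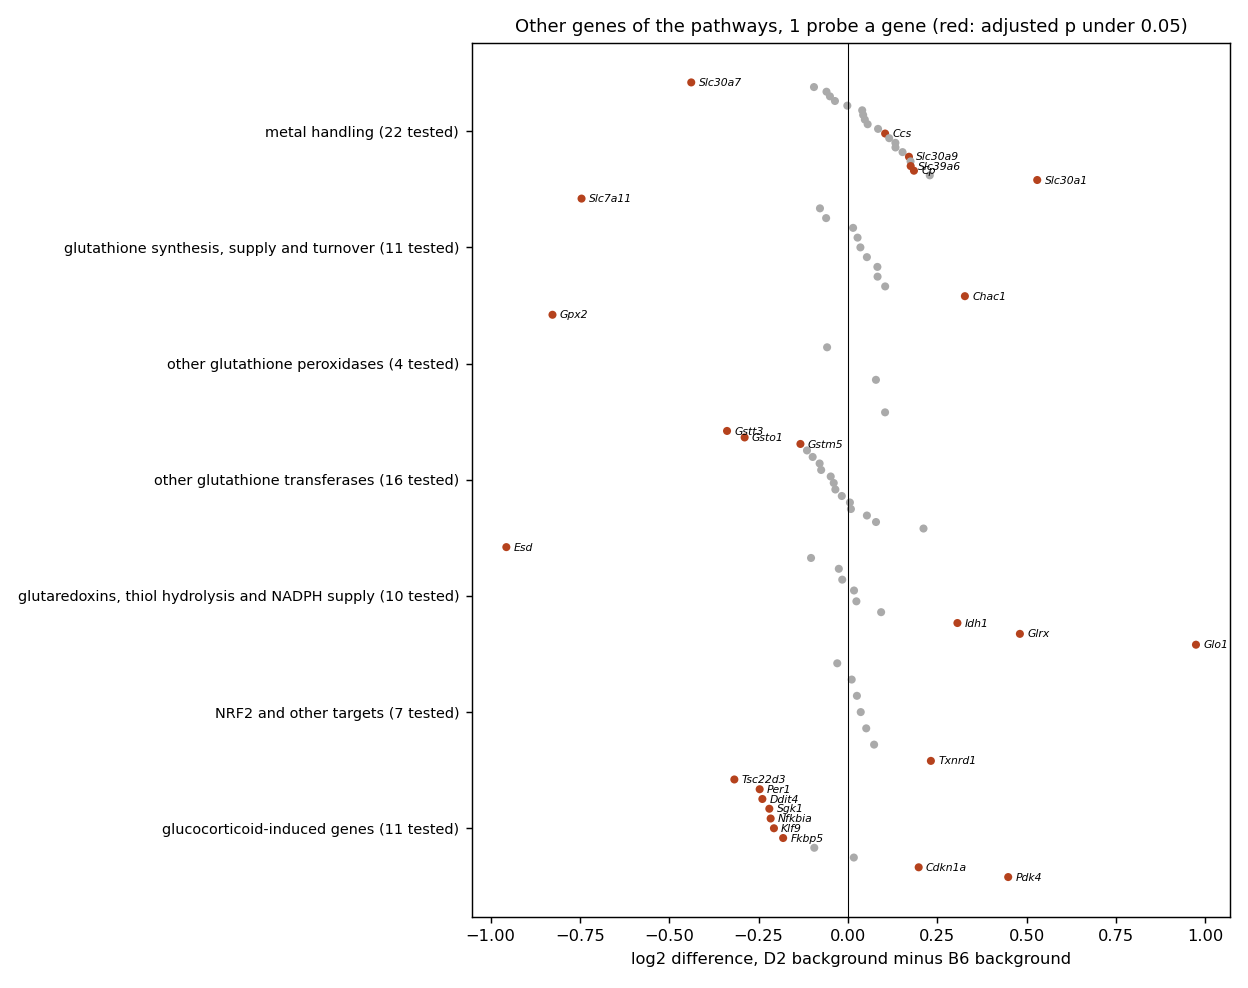
Log2 difference between the D2 and B6 backgrounds (horizontal axis) of the other genes of each list, with 1 point a gene at its brightest probe and genes at an adjusted p under 0.05 in red with their names. Glo1 is farthest to the right at 0.97, and Esd farthest to the left at -0.96.

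None of the listed pathway genes was called between R8 and B6. Nit1, which removes deaminated glutathione, lies on chromosome 1 inside both donor segments. It had the smallest p of them, at -0.16 (p = 0.000592, limma adjusted p = 0.305). The paper lists Nit1 as implicated by its arrays, while its QPCR of R8 against B6 gave no evidence of a difference. Between R2 and D2, Chac1 (0.37, limma adjusted p = 0.0293) and Nit1 (0.23, limma adjusted p = 0.0379) were higher in R2. Both calls were lost when R2 and D2 were processed without the other strains (limma adjusted p = 0.278 and 0.251), and when any of R2 replicates 1, 2, 4, 5 or 6 or D2 replicate 4 was left out (limma adjusted p = 0.0537 to 0.0968). Among probes that did not stand for their gene, 1 of Mgst3, a microsomal transferase inside the R2 segment, was lower in R2 by a log2 difference of -0.56 (limma adjusted p = 0.000685), while the brighter Mgst3 probe had -0.17 (limma adjusted p = 0.242).

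In whole brain, fewer cells of a type and less RNA per cell cannot be told apart. Of 14 astrocyte markers 12 were tested, of which 3 were called higher and 1 lower on the D2 background, with a list median of -0.01. Gfap (0.46), Slc1a2 (0.43) and Gja1 (0.24) were higher and Aldoc (-0.08) was lower, and the others lay between -0.10 for Fgfr3 and 0.00. The other Slc1a2 probes gave -0.29 and 0.15, so its direction depends on the probe. The summed astrocyte signal ran from 172297 to 189751 on the B6 background and from 175417 to 209230 on the D2 background, so the sums overlapped. The median r of the 12 tested markers over mice was 0.09 with Mt1, 0.05 with Mt2 and 0.09 with Mt3. Of the 6 tested microglia markers 3 fell and 1 rose, with a list median of -0.15, where 28% of all tested probes were called. They summed to between 5764 and 7870 on the B6 background and between 5577 and 6545 on the D2 background. Of the 6 tested oligodendrocyte markers 3 fell, with a list median of -0.13, and the summed signals overlapped. Neuron, endothelial, choroid plexus and red cell sums overlapped between the backgrounds too. The part of any cell type in the members' differences was not tested.

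Median raw signals ran from 380.2 to 578.5 over the arrays, and 10834 to 12283 probes were detected on each. Pairs of arrays correlated at 0.956 to 0.994, and no 2 arrays were identical. The labels and methods name separate animals, so the spread is that between mice of a strain.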

How the data were processed

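Whole brain RNA of 32 mice was measured on 32 arrays. In the deposited table used here, each value is the average bead intensity of a probe, which the authors neither normalized nor corrected for background, beside a detection p-value as deposited. The authors' own lumi-normalized intensities, also deposited, served as an alternative. The methods state that outlier arrays were removed. Probe coordinates in the supplement of the paper are on build NCBIM37.

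All fits used limma 3.58.1 under R 4.3.3. Background correction used neqc, which inferred the negative controls from detection p-values. Quantile normalization over the 32 arrays and a log2 transform followed, after an offset of 16 was added. Probes with a detection p under 0.01 on at least 6 arrays were tested, 12351 of 25697. Strain means were fitted with lmFit and eBayes over all 32 arrays without further covariates, and p-values were adjusted by Benjamini-Hochberg over all tested probes. Fold changes are on the log2 scale of these signals. Precision is limited by the number of arrays. A probe detected on no array of a background was given only a lower bound of its fold. Where a gene had several tested probes, the one with the highest mean signal stood for it.

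Of the probes, 23978 carry exactly 1 gene symbol in the platform annotation. Gene coordinates are those of RefSeq on GRCm38.p6. Promoter windows were found for 7 of the 10 members. Named genes were every member, up to 4 called genes of a list with the smallest p (at most 2 where none was called), and the 3 closest probes of other genes for each member. Gpx2, Ggct, Me1, Mgst3, Gstp1, Srxn1, the dimmer Nit1 probe and the astrocyte markers Aldoc and Fgfr3 were named after their values were seen. Members and lists were chosen with earlier results of these data known. Correlations used python 3.11.15, numpy 2.4.6 and scipy 1.17.1.

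Each fit was also run on simulated arrays in which known probes differed by 0.3 or 0.6. The background comparison recovered 72 and 98 of 100 such probes with 10 unchanged probes called, and the R8 and B6 comparison 58 and 96 with 6. Alternatives were no background correction, median scaling, the authors' table, other filters, blocks, an unmoderated test of each probe with equal variances (the methods give an unadjusted threshold of 0.01 and name no test), the 2 strains of a comparison alone, and leaving out each array.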

Additional observations from a re-analysis of the deposited data

Results flagged for a closer look

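In 36 groups of 1 member and 1 strain, 2 held a mouse that stood apart from the rest of its group, and chance flags about 1 in 20. Gsta4 in D2 replicate 1 was 11.11 on the log2 scale, with the next mouse at 10.68. Without it the difference of R2 from D2 for Gsta4 was -0.02 in place of -0.11, and that between the backgrounds was 0.13 in place of 0.17. Gstm1 in R8 replicate 7 was 12.61, with the next mouse at 12.86, and the same mouse had the lowest Mt2 value of R8. The causes were not tested.

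Among the listed transferases, 1 probe of Mgst3, a microsomal transferase on chromosome 1, had an interaction of -0.60 (limma adjusted p = 0.0133). This gene lies inside the R2 segment but outside that of R8, so R8 and B6 share its B6 allele. The interaction therefore does not compare allele effects of Mgst3 between the backgrounds. Mean log2 signals of the probe were 12.60 in B6, 12.55 in R8, 12.51 in R2 and 13.07 in D2. The brighter Mgst3 probe had an interaction of -0.23 (limma adjusted p = 0.519). The adjusted p of the first probe was 0.0683 after median scaling and 0.0819 with replicate number as a block.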

How the results depend on the processing

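The members called numbered 0 between R8 and B6, 0 between R2 and D2 and 0 for the interaction under all alternatives run, leaving out each array included. Between the backgrounds they numbered 3, or 4 in the alternatives named here, which added Gpx1: without R2 replicate 4, D2 replicate 6 or R8 replicate 9 (adjusted p = 0.0383 to 0.0489), and with the replicate number as a block (adjusted p = 0.0412). Mt2, Gclm and Gsta4 kept their calls throughout, with adjusted p up to 0.0231, 0.000193 and 0.0144.

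Nothing in the labels makes a replicate number mark a shared animal, litter or day. Mice of the same number had deviations that correlated from -0.29 to 0.31 between R8 and B6, and 1 of 10 correlated best with its own number. Between R2 and D2 they correlated from -0.06 to 0.16, with a median of 0.13, and 2 of 6 correlated best with their own number. With the replicate number as a block, 0, 0, 4 and 0 members were called in the 4 comparisons, and 49 probes in all between R2 and D2 and 2952 between the backgrounds.

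Between R2 and D2 the listed pathway genes called fell from 2 to 0 with no detection filter, where more probes were tested. All probes called there numbered 61, against 37 with no filter, 40 with blocks of label numbers, 18 with the 2 strains alone and 7 by the unmoderated test, and 32 to 127 when arrays were left out (32 without D2 replicate 3, 33 without R2 replicate 5, 35 without R2 replicate 2, 40 without D2 replicate 1, 105 without D2 replicate 6 and 127 without D2 replicate 2). At an unadjusted p under 0.01 the unmoderated test called 0, 0 and 3 members between R8 and B6, R2 and D2 and the backgrounds, where it called 128, 311 and 3230 of all 12351 probes. It was not run for the interaction. By its own processing of the arrays, the paper counts Mt2 as implicated between R8 and B6. Without background correction Gpx2 had -0.38 in place of -0.83 between the backgrounds. The Mgst3 probe lower in R2 lost its call by the unmoderated test (adjusted p = 0.130). Pairs of members that passed numbered 1, and 0 without the 2 mice farthest from the median. Median scaling gave Mt1 0.09 in place of 0.03 between the backgrounds. The block of table columns was chosen after seeing the data.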
